A study of Mus musculus with 18 samples.

Results

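Arxes1 and Arxes2 were measured in mouse dura mater, the outer membrane around the brain, together with 8 genes by which adipocytes are usually recognised: Adipoq, Lep, Retn, Cfd, Plin1, Cidec, Fabp4 and Pparg. A probe set stood for a gene when the array's annotation gave it that symbol and no other. By this rule 9 of the 10 genes were measured, each by 1 probe set, among 19937 genes in all; no probe set carried Cfd alone, so Cfd is named only. Arxes1 and Arxes2 were chosen from measured values: they alone were called as higher in the stroke response of engrafted than of wild-type dura. Their values in those 4 groups are therefore given as a description, with no test.

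The arrays came from 18 male mice of the WBB6F1 background, aged 17 to 21 weeks, in 6 groups of 3, each dura on its own array. Wild-type mice were Kit+/+. Deficient mice carried KitW/W-v, a pair of mutant alleles of the receptor that mast cells need, and so lack mast cells. Kit is mutant in all their cells, and engrafted mice, which were KitW/W-v mice given mast cells by vein 8 to 10 weeks earlier, keep that mutation in their own cells. Of each category 3 mice stayed naive and 3 underwent a stroke, in which a filament blocked the middle cerebral artery for 30 minutes; dura was taken 2 days later, after perfusion with saline. The controls were naive rather than sham-operated, so an effect of surgery cannot be told apart from one of stroke.

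Adipocytes store triglyceride in a single large droplet and release hormones into the blood. PPARG is the nuclear receptor that drives their differentiation; it switches on genes for droplet coating, lipid handling and secretion, and works with transcription factors of the C/EBP family. Arxes1 and Arxes2, the adipocyte-related X-chromosome expressed sequences, are a pair of neighbouring genes that arose as copies of the messenger RNA of Spcs3, a subunit of the signal peptidase complex of the endoplasmic reticulum. They are known as targets of PPARG that adipocyte precursors need to mature. Adipocytes are present in fat and marrow near the meninges but are not a main cell type of dura.

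The windows around the start sites of the Arxes genes are shown to compare the 2 genes at their starts. Both run from 250 bases before to 50 bases after the annotated start, are taken from RefSeq on GRCm38.p6, and read 5′ to 3′ on the plus strand. Capitals mark the GC box, GGGCGG.
Arxes1, chrX:136033117-136033416: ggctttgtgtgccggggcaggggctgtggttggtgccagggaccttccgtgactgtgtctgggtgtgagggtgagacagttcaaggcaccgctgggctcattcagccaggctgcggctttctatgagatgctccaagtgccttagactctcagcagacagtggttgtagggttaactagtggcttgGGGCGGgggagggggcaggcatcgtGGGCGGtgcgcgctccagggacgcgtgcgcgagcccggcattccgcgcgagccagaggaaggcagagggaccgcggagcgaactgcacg
Arxes2, chrX:135993570-135993869: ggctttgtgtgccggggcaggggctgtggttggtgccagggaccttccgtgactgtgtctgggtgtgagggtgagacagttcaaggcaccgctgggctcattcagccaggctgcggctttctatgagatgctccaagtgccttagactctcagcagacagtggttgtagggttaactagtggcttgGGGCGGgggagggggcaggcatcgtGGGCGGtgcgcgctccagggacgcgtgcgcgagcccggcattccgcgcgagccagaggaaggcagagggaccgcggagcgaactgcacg
The windows were the same at 300 of 300 bases, although the starts lie 39547 bases apart on chromosome X. Of 27025 genes in the RefSeq promoter table, 489 (1.81%) shared a window with another gene. Arxes1 spans 136033367 to 136034946 and Arxes2 spans 135993820 to 135995359. The windows lie mostly before the start, and neither the transcripts nor the probe sequences were compared. A transcript of one gene may have bound the probe set of the other, which could not be checked. The 2 probe sets are therefore not treated as independent measurements.

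Motifs were counted on both strands of the same kind of window for 9 of the 10 genes, which had 12 windows; Fabp4 had none in the table. The Arxes window held GGGCGG at 2 places and none of the nuclear receptor half-site AGGTCA, the TATA box TATAAA or the C/EBP-like TTGCNNAA. Over the 12 windows GGGCGG was found in 5, TTGCNNAA in 4, AGGTCA in 2 (both of Pparg) and TATAAA in 1. Over all 32851 windows the shares were 35.7%, 10.8%, 16.3% and 13.6%. These counts describe letters and show no binding. Guanine and cytosine made up 65.0% of the Arxes window, against a median of 52.67% over all windows.

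The label was checked against the levels first. Values are RMA summaries on a log2 scale, on which a difference of 1 is a doubling, and array medians lay between 7.77 and 7.91. Fabp4, the fatty acid carrier of adipocytes that capillary endothelium and macrophages also make, lay between 9.81 and 10.82. Pparg lay between 9.05 and 9.48. The other 7 measured genes were below the median of the array in all 18 arrays. Adipoq (adiponectin) was below the array's lower quartile, 6.09 to 6.23, in 8 of 18 arrays and Lep (leptin) in 14, while Retn (resistin), Plin1, Cidec and the Arxes genes were never below it. So Adipoq, Lep, Retn, Plin1, Cidec and the Arxes pair were dim on these arrays. The lowest value of Arxes1 was 6.19 in stroke wild-type array 2, where the lower quartile was 6.14. That of Arxes2 was 6.19 in stroke wild-type array 3, where the lower quartile was 6.09. The low side of the Arxes differences thus also rests on dim signal. Array means of the other adipocyte lists described below lay above the array medians. For 13 white adipocyte genes they were 8.36 to 8.81, and for 10 droplet genes 8.58 to 8.94. A mean over chosen genes is unlike a median over all probe sets, and bright genes can carry it. Of the 13 white adipocyte genes, 2 lay below the lower quartile in all arrays of each naive group, and 1 in all arrays of each stroke group. Of the 10 droplet genes, 0 did so in any group. Whether the dura held adipocytes was not tested. Each probe set has its own affinity, so a place relative to the array median is only a rough guide to level. Values of different probe sets are not otherwise compared with each other.

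Arrays of a group correlated at r of 0.984 to 0.997 over the 21640 tested probe sets. Ttr, a choroid plexus gene, was low in 5 arrays, which thus stood apart: naive deficient arrays 1 and 3, naive engrafted array 3, stroke wild-type array 2 and stroke deficient array 2, at 9.03 to 10.17. Differences of the 9 genes given below that moved by over 1.5 times without these 5 arrays are given both ways. Differences smaller than their SE were not followed in this way. The labels name no batch or scan date. Over 3473 dim probe sets, arrays were shifted by between -0.08 and 0.10. In bulk tissue, fewer cells of a type and less RNA per cell cannot be told apart.

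Arxes1 (probe set 10601848) was highest in naive wild-type dura, at 7.08, 7.24 and 7.12 in the 3 arrays. Naive deficient arrays read 6.86, 7.29 and 6.87, and naive engrafted arrays 6.89, 6.58 and 6.60. After stroke the wild-type arrays read 6.54, 6.19 and 6.46, the deficient arrays 6.76, 6.68 and 6.54, and the engrafted arrays 7.15, 6.77 and 7.08. Every stroke array of wild-type and deficient dura lay below every naive array of the same category, whereas in engrafted dura the groups overlapped. Among naive arrays, each engrafted value lay below each wild-type value, and after stroke each engrafted value lay above each wild-type and each deficient value.

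Arxes2 (probe set 10601846) followed the same course. Its naive values were 7.04, 7.45 and 7.33 in wild type, 6.89, 7.10 and 6.89 in deficient and 6.82, 6.45 and 6.34 in engrafted dura. Its stroke values were 6.78, 6.32 and 6.19 in wild type, 6.68, 6.72 and 6.64 in deficient and 7.07, 6.88 and 7.12 in engrafted dura. Here stroke and naive arrays did not overlap in any category: stroke arrays were all lower in wild type and deficient and all higher in engrafted dura. By group mean, Arxes2 ran from naive wild type (7.27 ± 0.21, SD, n = 3) through stroke engrafted (7.02 ± 0.13), naive deficient (6.96 ± 0.12), stroke deficient (6.68 ± 0.04) and naive engrafted (6.53 ± 0.25) to stroke wild type (6.43 ± 0.31). Of these neighbours, naive deficient and stroke deficient arrays were the only ones whose ranges did not overlap.

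**Figure D1:**
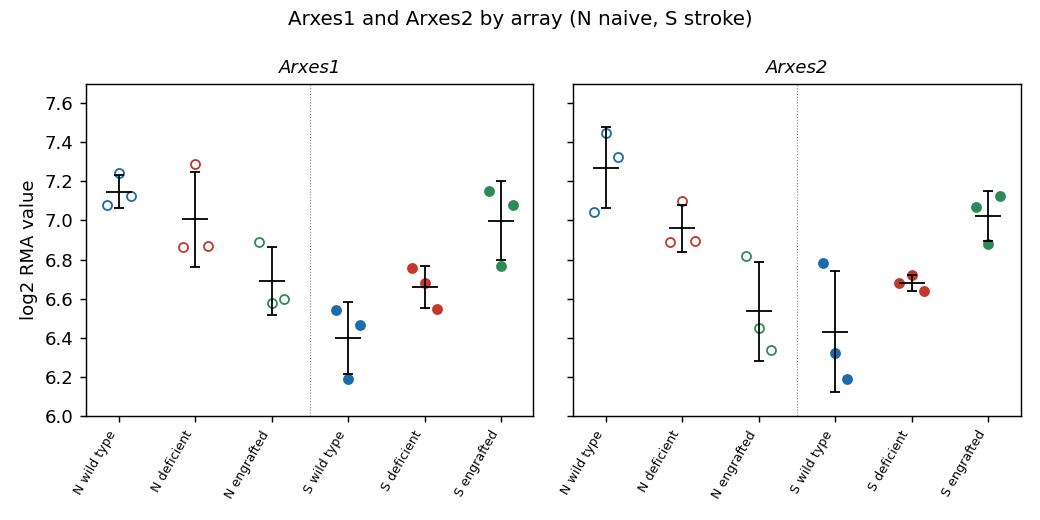
Log2 RMA values of Arxes1 and Arxes2 in each of 18 arrays (points; open for naive, filled for stroke), with the group mean and SD (n = 3) in black. From naive to stroke the values move down in wild-type and deficient dura. By group mean, engrafted dura is lowest among naive groups and highest among stroke groups.

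As differences between stroke and naive dura on the log2 scale, Arxes1 read -0.75 ± 0.13 (SE) in wild type and 0.31 ± 0.13 in engrafted dura, and Arxes2 read -0.84 ± 0.15 and 0.49 ± 0.15. The engrafted response exceeded the wild-type response by 1.06 ± 0.19 for Arxes1 and 1.33 ± 0.21 for Arxes2, the values that chose the pair. Naive engrafted minus naive wild-type dura was -0.46 for Arxes1 and -0.74 for Arxes2. Stroke engrafted minus stroke wild-type dura was 0.60 and 0.59. These values come from the arrays that chose the pair, so where the gap arose is not read from them. Without the 5 arrays low in Ttr, the gap between responses was 0.91 for Arxes1 and 1.18 for Arxes2. Limma, a linear model for arrays, called 0.106% of all tested probe sets in this interaction (23, of which 2 were higher), and both higher ones were the Arxes probe sets; nothing is read from that count, because it chose them. Of 25 alternatives, 18 lost the call of Arxes1 and 11 that of Arxes2.

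The means for stroke in deficient dura came from arrays outside that choice. Their SE, p and intervals did not, because the spread was pooled over all 18 arrays, including those that chose the pair. In deficient dura Arxes1 differed by -0.35 ± 0.13 (limma adjusted p = 0.300) and Arxes2 by -0.28 ± 0.15 (limma adjusted p = 0.423), so neither passed. The 95% intervals were -0.63 to -0.06 and -0.60 to 0.04, and they are not independent of the choice. Without the 5 arrays low in Ttr, which leaves 1 naive deficient array, the differences were -0.64 and -0.44, with limma adjusted p of 0.180 and 0.502.

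Spcs3, the gene the Arxes pair derives from, was measured beside them. It lay between 10.36 and 10.91 over the 18 arrays, and its stroke differences were 0.07 ± 0.10 in wild type, -0.17 ± 0.10 in deficient and 0.22 ± 0.10 in engrafted dura (limma adjusted p = 0.706, 0.460 and 0.415). Of the 5 measured signal peptidase genes (Spcs1, Spcs2, Spcs3, Sec11a and Sec11c), 0 passed in wild type after stroke, with a median of 0.05, beside 10.9% of all probe sets. In the engrafted minus wild-type interaction Spcs3 stood at 0.15 ± 0.14 (limma adjusted p = 0.663).

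The genes whose values over the 18 arrays were most like the mean of the Arxes pair were Lrch2 (Pearson r = 0.89), Ncoa7 (0.89), Mdga2 (0.88), Tram1l1 (0.87) and Gria4 (0.86). Tram1l1 was below the lower quartile in 17 of the 18 arrays. Gria4 encodes a subunit of glutamate receptors of neurons. The points share arrays and groups, so these correlations describe the table and carry no p.

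Markers of other tissues are given beside the Arxes genes. The neuron and astrocyte lists were chosen after the data were seen. The mean of 9 measured neuron genes was 10.43 to 10.89 in naive wild-type arrays and 9.58 to 10.02 in stroke wild-type arrays, without overlap. In engrafted dura it was 10.60 to 10.80 before and 10.26 to 10.91 after stroke. In wild type after stroke 0 neuron genes rose and 4 fell (Snap25, Syn1, Nefl and Gad1), with a median of -0.77, and among 8 astrocyte genes 1 rose (Gfap) and 4 fell (Aqp4, Gjb6, Aldoc and S100b), with a median of -0.51, beside 10.9% of all probe sets called; these calls were not refitted without single arrays. In the engrafted minus wild-type interaction the neuron median was 0.84 and 9 of 9 genes were positive, with 0 called; the astrocyte median was 0.50. In deficient dura after stroke, where the Arxes differences were also negative, the neuron median was -0.28 with 0 of 9 positive, the astrocyte median -0.16 and the choroid plexus median 0.79 with 8 of 9 positive. For naive engrafted minus naive wild-type dura, where the Arxes values differed, the neuron median was 0.06 and the astrocyte median -0.07. Choroid plexus genes had medians of -0.74 in wild type after stroke, 0.96 in the interaction and -1.12 between naive engrafted and wild-type dura, with 0 of 9 called in each.

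Marrow and blood markers were read in the same way. The mean of 10 granulocyte precursor genes was 7.86 to 8.04 in naive and 8.04 to 9.18 in stroke wild-type arrays, and 7.55 to 8.29 in naive and 8.64 to 9.84 in stroke engrafted arrays. After stroke 1 of these genes rose in wild type (Chil3) and 3 in engrafted dura (Prtn3, Ctsg and Chil3), beside 10.9% and 1.11% of all probe sets called; these calls were not refitted without single arrays. In the engrafted minus wild-type interaction the precursor median was 0.98 with 10 of 10 positive and the erythroid median 0.42 with 5 of 5 positive, with 0 called in both. The precursor median was positive in all 3 categories after stroke, at 0.40 in wild type and 0.75 in deficient dura, where the Arxes differences were negative, and 1.59 in engrafted dura. Between naive engrafted and wild-type dura it was 0.12. The part of any of these tissues in the Arxes values was not tested.

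Among the secreted hormones, Adipoq (probe set 10434747; chromosome 16, 23146536 to 23157968) differed most between categories. Adiponectin is the hormone that adipocytes secrete most. Naive arrays read 6.0, 6.30 and 5.88 in wild type, 6.09, 6.13 and 6.05 in deficient and 6.28, 6.28 and 6.76 in engrafted dura. After stroke they read 5.77, 5.86 and 5.87 in wild type, 6.15, 6.24 and 6.15 in deficient and 7.30, 6.40 and 6.99 in engrafted dura. The 3 stroke groups did not overlap, with wild type lowest and engrafted highest (SD 0.06 in wild type, 0.05 in deficient and 0.46 in engrafted dura).

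After stroke, Adipoq was higher in engrafted than in wild-type dura by 1.06 ± 0.18 (limma adjusted p = 0.0134). It was the 1 gene called, and the 1 gene at an unadjusted p under 0.05, of the 7 other than the Arxes pair; limma called 0.411% of all probe sets in this comparison. All 3 wild-type values lay below the lower quartile of the array, so the low side of this difference rests on dim signal. The call was lost without stroke wild-type array 1 (0.0561) or 3 (0.0612), without stroke engrafted array 1 (0.0514) or 3 (0.0741), with only these groups in the fit (0.188), and without the 5 arrays low in Ttr (0.0778), where the difference was 1.08. Against stroke deficient dura the engrafted value was 0.72 ± 0.18 higher and did not pass (limma adjusted p = 0.461). In that comparison limma called 0 of the 7 genes other than the Arxes pair, with Adipoq and Pparg at an unadjusted p under 0.05, and called 0.0277% of all probe sets.

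Markers of other tissues also had positive medians in stroke engrafted minus stroke wild-type dura, with 0 called in each list. The median was 0.82 over 5 erythroid genes (5 positive), 0.69 over 10 granulocyte precursor genes of marrow (10 positive), 0.74 over 9 neuron genes (9 positive) and 0.49 over 8 astrocyte genes (7 positive). The mean of the erythroid genes was 7.44 to 7.8 in stroke wild-type and 8.19 to 8.93 in stroke engrafted arrays, without overlap, and that of the precursor genes 8.04 to 9.18 and 8.64 to 9.84, with overlap. Skeletal muscle and choroid plexus genes had medians of -0.03 and -0.18. Against stroke deficient dura the medians were 1.38 for precursor and 0.46 for erythroid genes. The part of marrow, blood or brain in the Adipoq values was not tested.

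Adipoq was also called in the Kit-mutant categories (deficient and engrafted together) against wild type, averaged over naive and stroke dura, at 0.45 ± 0.11 (limma adjusted p = 0.0496). The parts of this average were unequal. Deficient minus wild-type dura was 0.03 ± 0.18 naive and 0.34 ± 0.18 after stroke. Engrafted minus wild-type dura was 0.38 ± 0.18 naive, and 0.22 without the 5 arrays low in Ttr. After stroke it was 1.06 ± 0.18, the difference already called above. In the average, Adipoq stood alone among the called genes. That is 1 gene called of 7, with Cidec and Retn also at an unadjusted p under 0.05, where 1.66% of all probe sets were called. Beside it, medians were 0.33 for neuron, 0.24 for erythroid, 0.21 for skeletal muscle, 0.09 for granulocyte precursor and -0.71 for choroid plexus genes, and their part was not tested. The call did not survive leaving out any of the 3 naive wild-type, the 3 naive deficient and the 3 stroke wild-type arrays, or naive engrafted array 2 or 3, stroke deficient arrays 2 or 3, or stroke engrafted arrays 1 or 3. The limma adjusted p without those arrays was 0.0507 to 0.121, and without the 5 arrays low in Ttr it was 0.162.

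The stroke response of Adipoq itself passed in no category. It was -0.23 ± 0.18 in wild type, 0.09 ± 0.18 in deficient and 0.46 ± 0.18 in engrafted dura (limma adjusted p = 0.458, 0.828 and 0.317). Engrafted minus wild type, the responses differed by 0.68 ± 0.25 (limma adjusted p = 0.277). Its values over the 18 arrays correlated with Arxes1 (r = 0.35) and Arxes2 (r = 0.19). Arxes1 and Arxes2 correlated with each other at r = 0.90. Both were chosen for the same interaction on arrays among these 18, and their probe sets may bind each other's transcripts. Nothing is therefore read from that r or from its contrast with Adipoq.

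**Figure D2:**
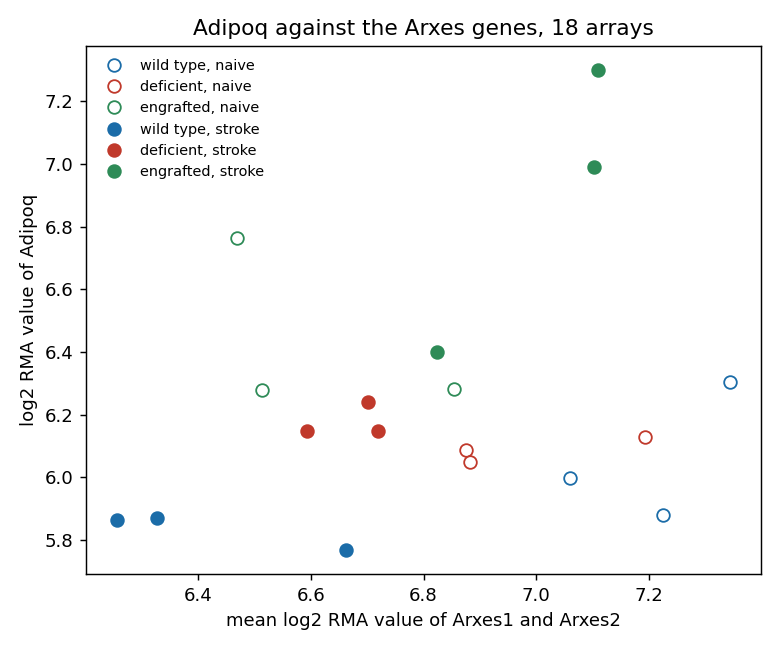
Log2 RMA value of Adipoq (y axis) against the mean log2 RMA value of Arxes1 and Arxes2 (x axis) in 18 arrays, coloured by category, open for naive and filled for stroke. Stroke wild-type arrays lie towards the lower left. Stroke engrafted arrays 1 and 3 lie at the upper right, and array 2 of that group nearer the middle. Naive wild-type arrays have high Arxes and low Adipoq values.

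Lep (probe set 10536789), the hormone that reports fat stores to the brain, lay between 5.73 and 6.55. Its highest value, 6.55, was stroke engrafted array 1, and the other 2 arrays of that group read 5.73, the lowest of the 18, and 5.86. Retn (probe set 10569870), a hormone of mouse adipocytes, lay between 6.53 and 7.39, with stroke engrafted array 1 again highest (7.39, beside 6.82 and 6.88). Naive Retn values were 6.53, 6.67 and 6.70 in wild type and 6.89, 6.95 and 7.23 in engrafted dura, without overlap. That difference, 0.39 ± 0.13, did not pass (limma adjusted p = 0.157).

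The droplet genes passed the test in no comparison. Plin1 (probe set 10564795), the perilipin that coats the droplet and gates lipolysis, lay between 6.91 and 7.55, again highest in stroke engrafted array 1. Cidec (probe set 10546929), which fuses small droplets into a large one, lay between 6.97 and 7.62. Its deficient arrays read 6.97, 7.19 and 7.19 naive and 7.32, 7.46 and 7.48 after stroke, without overlap, a difference of 0.30 ± 0.10 that did not pass (limma adjusted p = 0.237). For Cidec, stroke engrafted array 1 was the highest of the 18 at 7.62, beside 7.18 and 7.28 in its group. Adipoq, Lep, Retn, Plin1 and Cidec thus shared their highest array.

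Over the 18 arrays Retn correlated at r = 0.85 with Plin1, 0.86 with Cidec and 0.86 with Lep. The genes most like the mean of Adipoq, Plin1 and Cidec were Rnf186 (r = 0.84), Serpinb6e (0.83), Olfr1006 (0.81), Gm1968 (0.81) and Mir149 (0.81). Of these, Rnf186, Serpinb6e and Olfr1006 were below the lower quartile in all 18 arrays. The part of dim signal that arrays share in these correlations was not tested.

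Fabp4 (probe set 10497265) overlapped between stroke and naive arrays in every category. Its stroke differences were 0.13 ± 0.22 in wild type, 0.35 ± 0.22 in deficient and 0.14 ± 0.22 in engrafted dura (limma adjusted p = 0.770, 0.485 and 0.886). Without the 5 arrays low in Ttr the difference in deficient dura was 0.69 (limma adjusted p = 0.453). Its SE was the widest of the 9 genes.

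**Figure D3:**
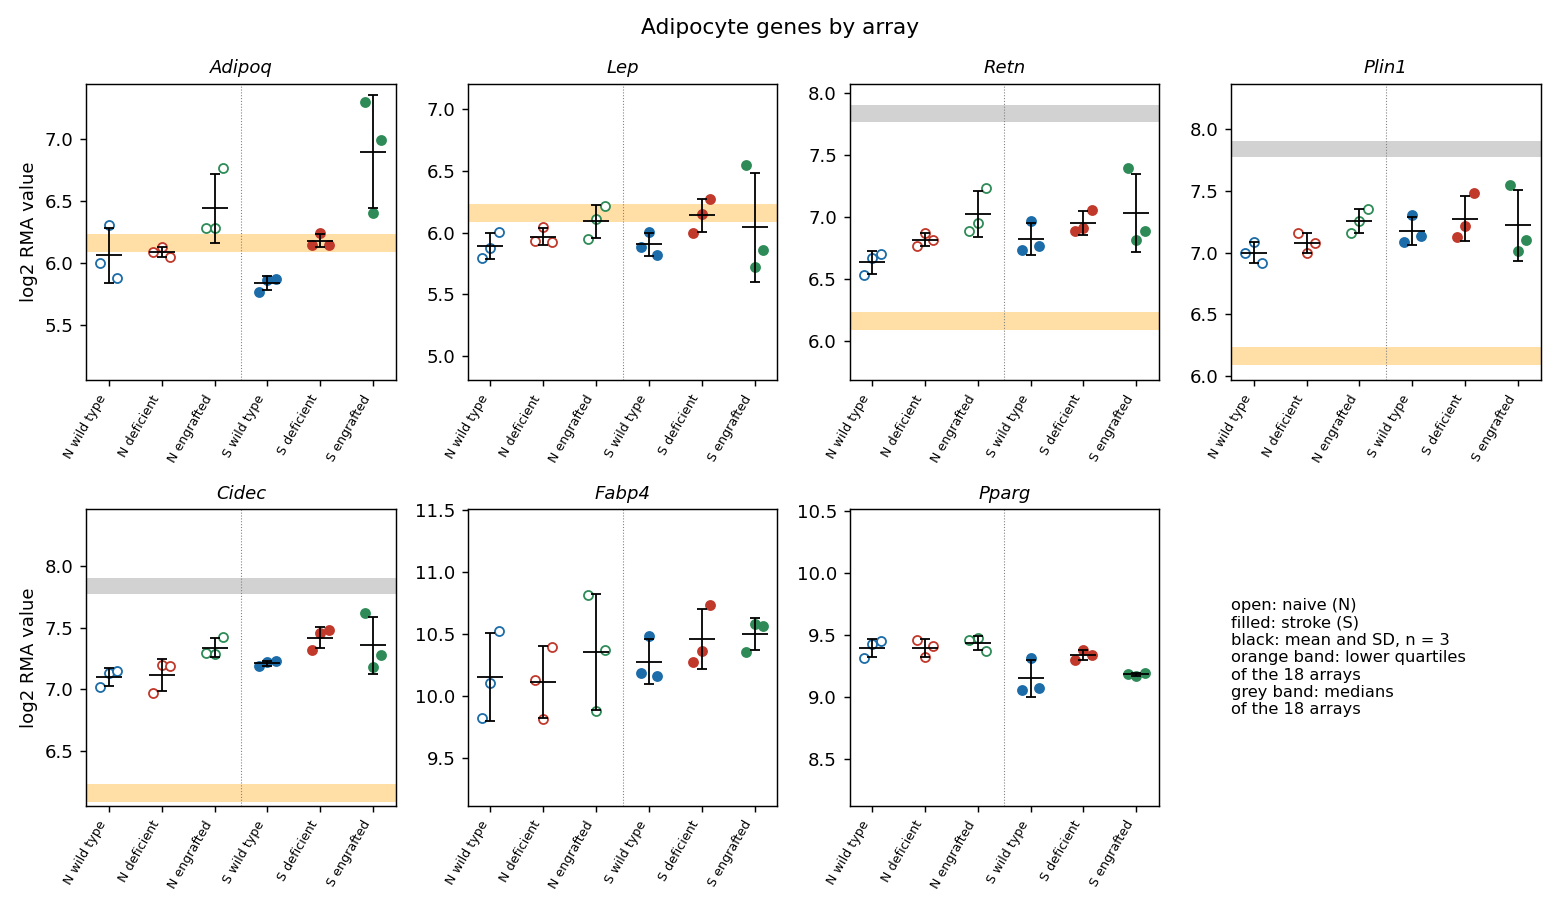
Log2 RMA values of the 7 measured genes other than the Arxes pair, by array (points; open naive, filled stroke), with group mean and SD (n = 3). Orange and grey bands give the range of the lower quartiles and of the medians of the 18 arrays; Adipoq and Lep lie around the orange band, Retn, Plin1 and Cidec between the bands, and Fabp4 and Pparg above both.

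Pparg (probe set 10540897; chromosome 6, 115360879 to 115490404), the regulator of the programme, read lower after stroke. Naive arrays read 9.31, 9.43 and 9.45 in wild type, 9.46, 9.32 and 9.41 in deficient and 9.46, 9.48 and 9.37 in engrafted dura. After stroke they read 9.05, 9.32 and 9.07, then 9.30, 9.38 and 9.34, then 9.19, 9.17 and 9.19. Stroke and naive arrays did not overlap in engrafted dura, and overlapped by 1 stroke array in wild type. Macrophages and endothelial cells also express Pparg.

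Averaged over the 3 categories Pparg fell by 0.19 on the log2 scale after stroke (SE 0.04, limma adjusted p = 0.00642), where 13.5% of all probe sets were called. Of the 7 genes other than the Arxes pair, 0 were called higher and 1 lower, and Cidec and Pparg had an unadjusted p under 0.05. Pparg kept its call under all 25 alternatives run, at adjusted p of 0.00111 to 0.0182. Within wild type Pparg fell by 0.25 (SE 0.07, limma adjusted p = 0.0346). This call was lost without naive array 2 (0.0900) or 3 (0.123), without stroke array 1 (0.120) or 3 (0.132), after a second quantile normalization (0.0716) and with only these groups in the fit (0.165). In engrafted dura the difference was -0.26 ± 0.07 (limma adjusted p = 0.109) and in deficient dura -0.06 ± 0.07 (limma adjusted p = 0.719); the deficient and wild-type responses differed by 0.19 ± 0.10 and this did not pass (limma adjusted p = 0.751; 0.33 and 0.501 without the 5 arrays low in Ttr).

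**Figure D4:**
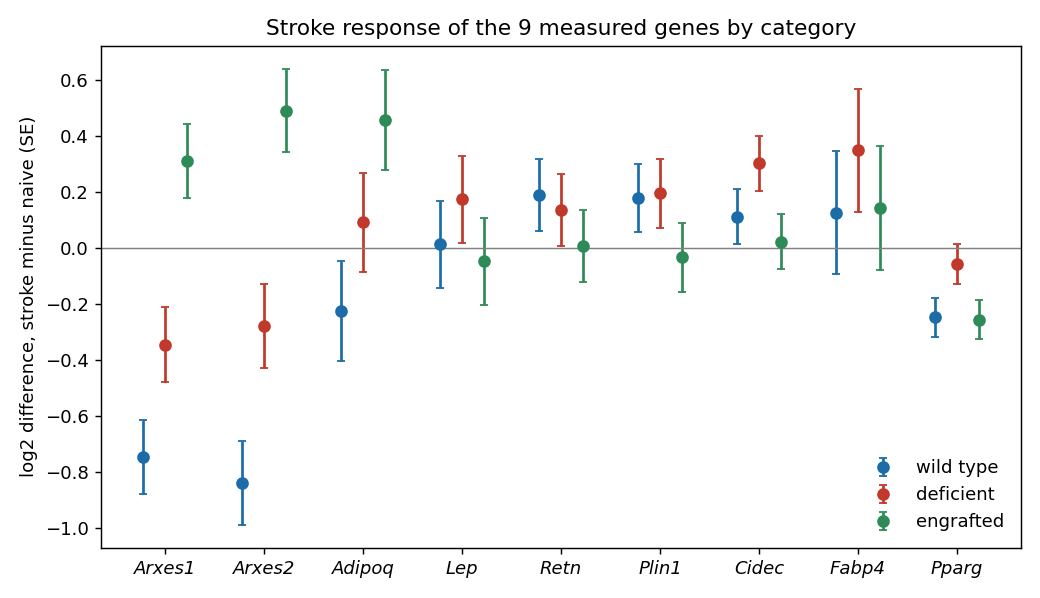
Stroke minus naive log2 difference (points) with its SE (bars) from the limma fit for the 9 measured genes in wild-type, deficient and engrafted dura. The Arxes genes spread from -0.84 to 0.49 between categories, Adipoq from -0.23 to 0.46, and Pparg from -0.26 to -0.06.

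Counts over the set leave out the Arxes pair wherever the compared means came from arrays that chose it, which leaves 7 genes. Stroke in wild type gave 0 up and 1 down of 7 (Pparg, also the 1 gene at an unadjusted p under 0.05), where 10.9% of all probe sets were called. In deficient dura limma called 0 of all 9 genes (0.25% of all probe sets), with Arxes1 and Cidec at an unadjusted p under 0.05. In engrafted dura limma called 0 of 7 (1.11% of all probe sets), with Adipoq and Pparg at an unadjusted p under 0.05. The median difference of the 7 genes was 0.11, 0.17 and 0.01 in the 3 categories, against medians of 0.01, 0.04 and -0.01 over all probe sets.

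Between categories in naive dura, limma called 0 of the 7 genes in each comparison. Deficient minus wild type called 0.0185% of all probe sets, and 0 of the 7 had an unadjusted p under 0.05. Engrafted minus wild type called 0% of all probe sets (0, with 4143 at an unadjusted p under 0.05), and Adipoq, Cidec and Retn had an unadjusted p under 0.05. In it the differences of the 7 genes lay between 0.04 and 0.39, beside a median of 0.005 over all probe sets. Those of Pparg (0.04 ± 0.07) and Fabp4 (0.20 ± 0.22) were smaller than their SE. Plin1, Cidec, Lep and Retn correlated with each other over the arrays, so the signs of the 7 are not separate. The Arxes differences, from arrays that chose the pair, were negative. Engrafted minus deficient called 0.0185% of all probe sets, and Cidec had an unadjusted p under 0.05.

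After stroke, deficient minus wild type gave 0 of 7 genes called by limma, with Cidec and Pparg at an unadjusted p under 0.05 and 2.61% of all probe sets called. For the interactions with stroke, limma called 0 of 7 genes in each. In deficient minus wild type 0.351% of all probe sets were called and 0 of the 7 had an unadjusted p under 0.05, in engrafted minus deficient these were 0.00462% and 0, and in engrafted minus wild type Adipoq alone had an unadjusted p under 0.05. As a description, the deficient minus wild-type response difference was 0.40 for Arxes1 and 0.56 for Arxes2, and 0.01 and 0.35 without the 5 arrays low in Ttr. These comparisons share arrays with one another and with those that chose the Arxes pair.

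The other genes of adipocyte biology were read from 8 lists of 82 genes, of which 78 were measured. In wild type after stroke 4 rose and 4 fell, or 10.3% of them beside 10.9% of all probe sets. Rarres2, which encodes chemerin, a chemoattractant made by fat and stroma, rose by 0.65 ± 0.11 (limma adjusted p = 0.00123), and Plin2, the droplet coat of cells other than adipocytes, by 0.69 ± 0.12 (limma adjusted p = 0.00217). Both kept their calls under every alternative run. Metrnl (0.22 ± 0.06), a secreted hormone, and Dio2 (0.63 ± 0.18), which activates thyroid hormone, also rose. Hilpda (-0.32 ± 0.08), an inhibitor of lipolysis, Dgat2 (-0.33 ± 0.10) and Lpin1 (-0.24 ± 0.07), enzymes of triglyceride synthesis, and Acvr1c (-0.64 ± 0.18), an activin receptor of adipocytes, fell.

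Those last 6 calls were not stable. Metrnl lost its call without any naive wild-type array, without stroke wild-type array 2 or 3 or without naive engrafted array 2, Dio2 without naive wild-type array 2 or 3 or stroke wild-type array 1 or 2, and Hilpda without naive wild-type array 2 or stroke wild-type array 2. Dgat2 lost it without naive wild-type array 1 or 2 or stroke wild-type array 1 or 3, Lpin1 without naive wild-type array 2 or 3 or stroke wild-type array 1 or 3, and Acvr1c without naive wild-type array 3 or stroke wild-type array 1 or 3. For all 6 the adjusted p without the 5 arrays low in Ttr was 0.0503 to 0.227.

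By role, the secreted proteins gave 2 up and 0 down of 9 in wild type after stroke, the droplet proteins 1 up and 1 down of 10, and triglyceride enzymes 0 up and 2 down of 12. In this comparison limma called 10.9% of all probe sets, the share beside which each count of this paragraph stands. White adipocyte genes gave 0 up and 1 down of 13 and thermogenic genes 1 up and 0 down of 9, with Ucp1, the uncoupling protein of brown fat, at 0.18 ± 0.07 (limma adjusted p = 0.128). Fatty acid synthesis (8 genes), uptake (7 genes) and the transcription factors of adipogenesis (10 genes) gave 0 calls. Lpl, the lipase that releases fatty acids at the vessel wall, stood at -0.18 ± 0.10 (limma adjusted p = 0.252) and Klf15 at -0.35 ± 0.12 (limma adjusted p = 0.0627). Of 9 progenitor and stromal genes 3 rose and 0 fell, namely Cd34 (0.41 ± 0.09), Pi16 (0.43 ± 0.10) and Icam1 (0.48 ± 0.10), none of which is restricted to adipocyte precursors; these 3 kept their calls under every alternative run.

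Averaged over the 3 categories, 7 of the 78 genes rose and 3 fell after stroke (12.8%, beside 13.5% of all probe sets). Rarres2 (0.32 ± 0.06) and Plin2 (0.38 ± 0.07) rose, as did Aqp7 (0.34 ± 0.08), a glycerol channel, and Rxra (0.16 ± 0.04), the partner with which PPARG binds DNA (limma adjusted p = 0.00292, 0.00249, 0.00881 and 0.0160). These 4 kept their calls under every alternative run. Klf15, a transcription factor of adipogenesis that glucocorticoids induce, fell by 0.26 (SE 0.07, limma adjusted p = 0.0173), a call kept without any single array and lost without the 5 arrays low in Ttr (0.133). The other 5, Agpat2, Slc25a1 and Dio2 among those that rose and Hilpda and Lpin1 among those that fell, each lost their call without 1 or more single arrays.

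Deficient dura after stroke differed from wild type in 5 of the 78 genes (6.41%, beside 2.61% of all probe sets). G0s2, an inhibitor of the main triglyceride lipase, was higher by 0.61 ± 0.12 (limma adjusted p = 0.00955), a call lost without stroke wild-type array 3 (0.0543) or stroke deficient array 2 (0.0511). Cebpd, an early transcription factor of adipogenesis that inflammation also induces, was lower by -0.61 ± 0.11 (limma adjusted p = 0.00814), a call kept without any single array and lost with only these groups in the fit (0.0549). Npr3 (0.51 ± 0.12) and Aoc3 (0.47 ± 0.12) were higher and Rarres2 lower (-0.44 ± 0.11); Npr3 lost its call without stroke wild-type array 1 or 2 or stroke deficient array 2 or 3, Rarres2 and Aoc3 kept theirs only without array 1 or 2 of naive wild-type or array 2 or 3 of naive deficient dura, Rarres2 also without stroke wild-type array 1 or stroke engrafted array 1 or 2, and Aoc3 also without naive engrafted array 1.

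For the Kit-mutant categories together, 4 of the 78 genes were called (5.13%, beside 1.66% of all probe sets). Cebpd was lower by -0.48 ± 0.07 (limma adjusted p = 0.00237) and kept its call under every alternative run. Cebpb (-0.30 ± 0.06) was lower, and Lrp3 (0.20 ± 0.04) and Aoc3 (0.34 ± 0.07) were higher. Each of these 3 lost its call without array 2 or 3 of naive wild-type, array 3 of naive engrafted or array 3 of stroke wild-type dura, Cebpb and Lrp3 also without stroke deficient array 2, and Lrp3 also without stroke wild-type array 1. In engrafted against wild-type dura after stroke, where Adipoq was called, 0 of the 78 genes passed by limma and 14 had an unadjusted p under 0.05, beside 0.411% of all probe sets called and 2502 of 21640 at an unadjusted p under 0.05.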

How the data were processed

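The 18 arrays were measured in 6 groups of 3. Per the submitters' processing notes, RMA, affy and R 3.0.0 were used; what each did is not given in the sources used here. The deposited log2 values covered 34760 probe sets; the 21640 that carried a single gene symbol were tested, 1321 carried several and 11799 were not annotated. No value was rescaled and no dim probe set removed. In the main fit, shares, counts and medians over all probe sets are over the 21640 tested. The alternative named all probe sets fitted the 34760.

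Limma 3.58.1 in R 4.3.3 estimated 6 group means from the 18 arrays (12 residual and 3.41 prior degrees of freedom) for 14 comparisons. Benjamini-Hochberg adjustment ran over the 21640 probe sets, with a threshold of 0.05. The p-values rest on a spread between mice pooled over the 6 groups of 3 and moderated over all probe sets. It is not the spread of the compared groups alone, which can differ, as for Adipoq after stroke. Precision is limited by the few arrays. The fit was tested on simulated data. Figures were drawn with matplotlib 3.10.9 and tables written with pandas 2.3.3 (Python 3.11.15).

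The genes, lists and rules were chosen with earlier results of these data known; the neuron and astrocyte lists were added after the data were seen. Named were every member, in each further list up to 3 genes with the smallest p, the 5 genes most like the Arxes mean and the Adipoq, Plin1 and Cidec mean, Spcs3 and Ttr; the neuron and astrocyte genes and the genes named because a count was 5 or fewer fall outside that rule where it does not reach them, and were picked with their values in view. Alternatives were leaving out each array, leaving out dim probe sets (mean under 7.83 in every group), a replicate block, array weights, a second quantile normalization, all probe sets, fitting only the compared groups, a variance trend with robust moderation and, added later, the 5 arrays lowest in Ttr left out.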

Additional observations from a re-analysis of the deposited data

Results flagged for a closer look

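The stroke response of Arxes1 was higher in engrafted than in wild-type dura by 1.06 on the log2 scale, and that of Arxes2 by 1.33. These responses stood out because they differed between the categories, and they are the values by which the genes were chosen. In the same interaction neuron markers had a median of 0.84 and granulocyte precursor markers of 0.98, and their part in it was not tested.

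The stroke response of Adipoq was higher in deficient than in wild-type dura by 0.32. It stood out because all 3 stroke arrays of wild-type dura lay below, and all 3 of deficient dura above, the naive arrays of their category. The difference itself did not pass (0.32 ± 0.25, limma adjusted p = 0.907), and the deficient difference of 0.09 was smaller than its SE of 0.18. No group could be searched for a single array far from the others, since each held 3.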

How the results depend on the processing

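The counts here are of all 9 measured genes. The Arxes calls among them come from the values that chose the pair; that of Arxes1 for stroke averaged over categories was lost in 9 of 24 alternatives.

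The replicate numbers did not pair the arrays: same-numbered arrays deviated together with a median r of -0.06 (-0.61 to 0.60, 11 of 45 pairs over 0.1). With the replicate number as a block, 0 members were called for Kit-mutant minus wild type and 0 for the engrafted minus wild-type interaction, instead of 1 and 2. Without dim probe sets, which leaves 2 members (Fabp4 and Pparg), stroke in wild type called 1 and stroke averaged over categories 1, while stroke engrafted minus wild type, Kit-mutant minus wild type and the interaction called 0. Array weights called 1 member for stroke in deficient, 1 for naive engrafted minus wild type, 1 for stroke deficient minus wild type and 2 for stroke engrafted minus wild type. Over all probe sets the counts moved, in that order, from 54 to 1326, 0 to 164, 565 to 1743 and 89 to 199. With only the compared groups in the fit, stroke engrafted minus wild type and the interaction called 0. With all 34760 probe sets in the fit, Kit-mutant minus wild type called 0 and the interaction 1. Without the 5 arrays lowest in Ttr, those 2 and stroke engrafted minus wild type called 0, and Arxes1 in naive deficient minus wild-type dura turned from -0.14 to 0.14, with 1 deficient array left.

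Without single arrays, the members called ranged from 1 to 3 for stroke averaged, 0 to 1 for stroke deficient minus wild type, 0 to 2 for stroke engrafted minus wild type, 0 to 1 for stroke engrafted minus deficient, 0 to 1 for Kit-mutant minus wild type and 0 to 2 for the interaction. The causes were not tested. No member had a second probe set, so that alternative was not run.

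Counts over all probe sets moved too, without single arrays and under the other settings. Stroke averaged over categories (2914) ranged from 2182 to 2842 and from 1913 to 3965. Stroke engrafted minus deficient (6) ranged from 4 to 39 and from 4 to 8. Stroke in wild type (2352) ranged from 1371 to 2666 and from 1368 to 2635; in deficient (54) from 8 to 56 and from 1 to 1326; in engrafted (241) from 60 to 396 and from 33 to 394. Stroke deficient minus wild type (565) ranged from 226 to 632 and from 95 to 1743, stroke engrafted minus wild type (89) from 29 to 333 and from 0 to 199, Kit-mutant minus wild type (360) from 105 to 741 and from 95 to 1355, and the engrafted interaction (23) from 8 to 52 and from 8 to 42. Most members lie below the array median, and no detection call was used here, which limits how far their low values can be read.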
